A study of Mus musculus with 4 samples.

Results

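The 8 genes C1qa, C1qb, C1qc, C3, C3ar1, C5ar1, Itgam and Itgb2, which encode complement components and complement receptors, were chosen by symbol and were followed in brain microglia by single-cell RNA sequencing. All 8 were found among the 19737 genes of the deposited count matrix, and all 8 passed the filter on low counts that left 14058 genes for testing. The matrix held 74758 cells from 20 mice, 4 in each of 5 groups, taken 24 h after 1 intravenous dose of 10 mg/kg antibody. 2 groups of WT;TfRmu/hu mice received either ATV:ISO or ATV:4D9. The 3 groups of AppSAA;TfRmu/hu mice received ATV:ISO, ATV:4D9 or 4D9 without the vehicle. They are called WT and AppSAA mice from here on.

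All mice, controls included, carried TfRmu/hu, a knock-in allele that gives the transferrin receptor a human part to which the antibody transport vehicle (ATV) binds. AppSAA is a knock-in of the amyloid precursor protein gene with mutations that cause familial Alzheimer's disease, so the gene is driven by its own promoter. 4D9 is an antibody that activates mouse TREM2, a lipid receptor of microglia, ATV:4D9 carries the transport vehicle in its Fc part, and ATV:ISO is a vehicle control without TREM2 binding. The deposited labels name the control ATV-DNP02, and no deposited text states that this is ATV:ISO, so that name is a reading of the design. The study's notes give WT;TfRmu/hu mice of both sexes aged 2 to 8 months, and they give the AppSAA line, in an entry headed by WT as well, as males aged 8 months. Which entry covers the WT mice of this series is not stated. In the labels 1 WT ATV:ISO mouse, replicate 4, is female.

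Cells were sorted from brain as live CD11b+ cells, and the deposited texts disagree on whether CD45 was also gated and on whether hippocampus was included with cortex. Cells of each mouse were tagged and run in 4 pools. A pool took 1 mouse per group, and replicate numbers are pool numbers. Each mouse gave 2193 to 6126 cells and 17150296 to 102446549 unique molecular identifiers (UMIs, counts of single captured transcripts). The median mouse-level depth was 6859 to 8173.5 UMIs per cell in WT ATV:ISO and 13479 to 17290 in WT ATV:4D9, and in AppSAA mice it was 8444.5 to 9883.5 with ATV:ISO, 8293 to 11552.5 with 4D9 and 13560 to 16475 with ATV:4D9. Depth per cell thus moved with ATV:4D9 in both genotypes, and its part in the results below was not tested. The summed level of 6 microglial markers was 11201 to 21847 CPM (UMIs per 1000000 UMIs of the mouse), against 9.97 to 32.7 CPM for border macrophage, 4.09 to 13.7 for monocyte, 4.01 to 22.5 for neutrophil, 0 to 0.855 for lymphocyte, 61.5 to 165 for astrocyte, 15.1 to 46.2 for oligodendrocyte, 0.395 to 1.87 for neuron and 9.54 to 52.4 for endothelial markers. The lists moved with the groups. Microglial markers averaged 21437 CPM in WT ATV:ISO and 14490 in WT ATV:4D9, and 15334, 15173 and 12078 in AppSAA mice with ATV:ISO, 4D9 and ATV:4D9. Astrocyte markers averaged 148 and 69.6 CPM in the WT groups, monocyte markers 7.01 CPM with ATV:ISO and 12.01 with ATV:4D9 in AppSAA mice, and endothelial markers 22.8 CPM in WT and 43.5 in AppSAA mice with ATV:ISO. The genes of a list did not move together in these 3 contrasts. Of the astrocyte markers Slc1a3 alone was called, lower by -0.998 on the log2 scale. Of the monocyte markers Plac8 (2.74) and Vcan (0.94) were called higher and Ly6c2, Ccr2 and Chil3 lower, and of the endothelial markers Flt1 was called higher (3.33), Pecam1 lower (-0.93) and the others were not called. The part of these shifts in the results was not tested. As a check of the genotype labels, Cst7, a gene of amyloid-associated microglia, was higher by 4.00 on the log2 scale in AppSAA ATV:ISO than in WT ATV:ISO mice, and App itself differed by 0.17 (adjusted p = 0.0512). Across pools 543 barcode sequences occurred more than once, and they were kept as separate cells.

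Complement is a cascade of plasma and tissue proteins that tags targets for removal. C1q, built of A, B and C chains, recognises the target and starts the classical pathway, which cleaves C3. C3 fragments bind the target and are read by complement receptor 3 (CR3), a heterodimer of the Itgam (CD11b) and Itgb2 (CD18) chains, while the small fragments C3a and C5a signal through C3ar1 and C5ar1. In brain, microglia are the main source of C1q, and complement is known for its part in the removal of synapses and in the microglial response to amyloid.

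The C1q genes lie next to each other on the minus strand of mouse chromosome 4 (mm10), C1qb at 136880129 to 136886187, C1qc at 136889804 to 136893065 and C1qa at 136895917 to 136898803. C3 lies on chromosome 17 (57203970 to 57228136, minus strand), C3ar1 on chromosome 6 (122847138 to 122856161, minus strand) and C5ar1 on chromosome 7 (16246743 to 16259540, minus strand). Itgam lies on chromosome 7 (128062640 to 128118491, plus strand), where the readthrough gene Gm49368 overlaps it on the same strand, so the Itgam count is uncertain to that extent. Itgb2 lies on chromosome 10 (77530252 to 77565708, plus strand).

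The 250 bases before the RefSeq transcript start (GRCm38.p6) are shown for C1qb and C1qc, whose levels went together across mice, and for C3 and C5ar1, whose levels changed most, the former with genotype and the latter with ATV:4D9. They were read on the minus strand at chr4:136886201-136886450 (C1qb), chr4:136892915-136893164 (C1qc), chr17:57228137-57228386 (C3) and chr7:16259339-16259588 (C5ar1). Capitals mark matches to the motifs searched on both strands.
C1qb: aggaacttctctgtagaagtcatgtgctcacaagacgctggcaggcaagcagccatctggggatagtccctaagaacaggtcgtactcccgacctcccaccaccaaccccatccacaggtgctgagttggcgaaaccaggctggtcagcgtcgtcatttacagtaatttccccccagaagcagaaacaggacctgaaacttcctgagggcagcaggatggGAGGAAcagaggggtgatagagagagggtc
C1qc: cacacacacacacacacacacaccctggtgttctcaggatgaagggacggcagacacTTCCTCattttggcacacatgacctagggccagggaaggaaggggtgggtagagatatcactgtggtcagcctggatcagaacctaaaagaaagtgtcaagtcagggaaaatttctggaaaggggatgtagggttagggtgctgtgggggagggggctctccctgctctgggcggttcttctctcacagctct
C3: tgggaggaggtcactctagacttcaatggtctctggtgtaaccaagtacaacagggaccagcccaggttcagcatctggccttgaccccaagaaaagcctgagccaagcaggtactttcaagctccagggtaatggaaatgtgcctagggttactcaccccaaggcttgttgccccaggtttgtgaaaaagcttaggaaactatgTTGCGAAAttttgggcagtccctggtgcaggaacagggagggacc
C5ar1: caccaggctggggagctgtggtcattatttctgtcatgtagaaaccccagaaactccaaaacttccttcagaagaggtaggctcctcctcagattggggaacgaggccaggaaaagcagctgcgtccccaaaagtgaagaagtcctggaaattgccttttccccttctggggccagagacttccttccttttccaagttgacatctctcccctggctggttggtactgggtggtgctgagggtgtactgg
The core of the PU.1 motif (GAGGAA), a factor of the myeloid lineage, matched at -30 to -25 from the C1qb start and, on the other strand, at -193 to -188 from the C1qc start. It was in 23.3% of all 32851 promoters of this length. The C3 window held 1 match to the C/EBP motif TTGCNNAA at -45 to -38, a motif in 9.56% of promoters. Of the motifs not shown here, AP-1 (TGANTCA, 6.75% of promoters) matched at -22 to -16 in C3ar1, and PU.1 matched at -84 to -79 and -15 to -10 in Itgam. The windows of these 6 genes held no match to the interferon-stimulated response element (2.98% of promoters) or the E-box CACGTG (6.02%), and the C5ar1 window held no match to any of the 5 motifs. A match is a description of the letters, and C1qa and Itgb2 are only named.

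The first question was how the levels varied between mice. C3 and C5ar1 spanned 8.30-fold and 5.01-fold from the lowest to the highest of the 20 mice in CPM, Itgam 1.85-fold, and the other members 1.20-fold (Itgb2) to 1.33-fold (C1qa). The plot of the members by mouse shows these values.

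**Figure D1:**
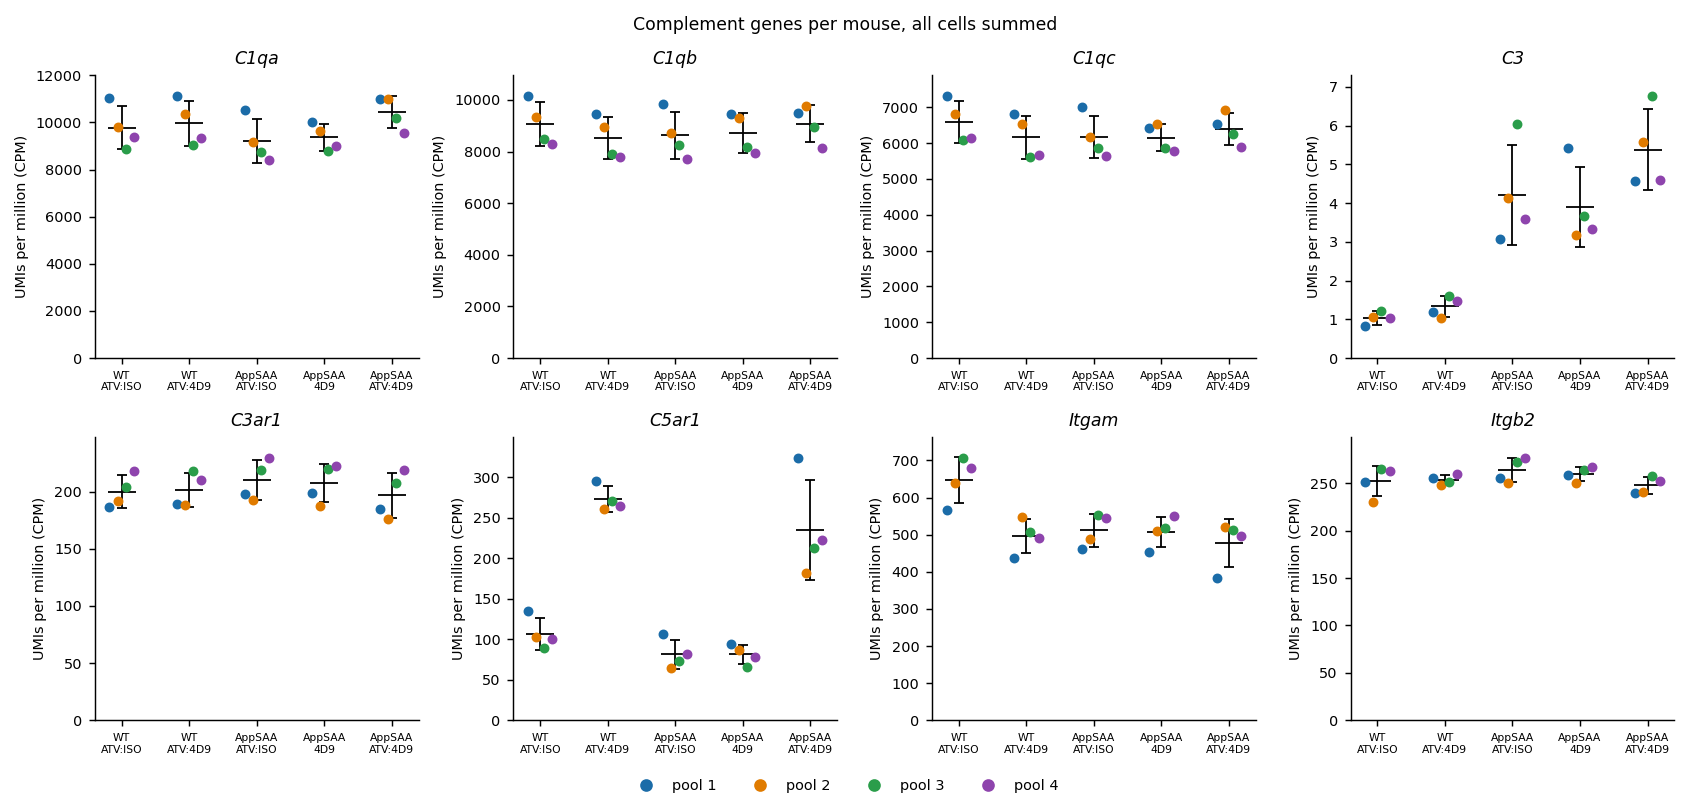
Levels in CPM of the 8 members in each of the 20 mice, by group, with points coloured by pool and bars at the group mean ± SD (n = 4). C5ar1 was high in every ATV:4D9 mouse and C3 in every AppSAA mouse, while the C1q chains ordered by pool within each group.

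The C1q chains were abundant, and as a share of UMIs (CPM) they changed little with genotype or antibody. C1qa, the A chain, was at 11045, 9793, 8894 and 9385 CPM in WT ATV:ISO mice of pools 1 to 4 and at 11143, 10347, 9037 and 9355 CPM in WT ATV:4D9 mice. In AppSAA mice it was at 10530, 9176, 8734 and 8397 CPM with ATV:ISO, at 10040, 9654, 8782 and 8991 CPM with 4D9, and at 10991, 11005, 10205 and 9569 CPM with ATV:4D9. The groups overlapped, and mice of pool 1 or 2 were the highest in every group. The group means of C1qb, the B chain, ran from 8524 ± 798 CPM (SD, n = 4, WT ATV:4D9) to 9083 ± 718 CPM (AppSAA ATV:4D9), and those of C1qc, the C chain, from 6149 ± 371 (AppSAA 4D9) to 6595 ± 588 CPM (WT ATV:ISO). Together the 3 chains made up 2.17% to 2.85% of all UMIs of a mouse.

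The C1q values were ordered by pool. For each of the 3 chains, all 5 mice of pool 1 and all 5 of pool 2 lay above their group means of log2 CPM and all mice of pools 3 and 4 below. On the CPM scale 1 value differed, C1qa in AppSAA ATV:ISO replicate 2, at 9176 CPM against a group mean of 9209 CPM. In pool 1 the mean deviation was 0.14 for C1qa, 0.14 for C1qb and 0.12 for C1qc on the log2 scale, and in pool 4 it was -0.09, -0.14 and -0.11. C3ar1 took the reverse order, with the mice of pools 1 and 2 below and those of pools 3 and 4 above their group means. The median mitochondrial percent of a mouse, a sign of RNA quality, was ordered by pool too, at 1.01% to 1.32% in the mice of pools 1 and 2 and 1.41% to 2.09% in those of pools 3 and 4. It was also higher with ATV:4D9 than with ATV:ISO in each of the 4 WT pools, and its part in these values was not tested.

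In edgeR's quasi-likelihood test (adjusted over all genes, threshold 0.05) with no term for the pool, none of the C1q chains was called in any of the 7 contrasts. With the pool as a block, C1qa was called higher with ATV:4D9 in WT mice (log2 fold change 0.14, adjusted p = 0.0114). In AppSAA mice with ATV:4D9 against ATV:ISO, the block called C1qa, C1qb and C1qc higher by 0.26, 0.15 and 0.12 (adjusted p = 1.07e-04, 0.00819 and 0.0185). Against 4D9 the same chains were called at 0.22, 0.12 and 0.12 (adjusted p = 5.22e-04, 0.0255 and 0.0261), and against WT ATV:4D9 at 0.21, 0.23 and 0.20 (adjusted p = 0.00246, 7.80e-04 and 0.00231). In AppSAA mice against ATV:ISO, C1qa was also called with no pool term when cells under 1000 or over 25000 UMIs were left out. The same held without ATV:ISO replicate 1 or ATV:4D9 replicate 4.

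These small C1q differences depended on how libraries were scaled. TMM factors, which edgeR uses by default, place the median gene near 0 (-0.05 in WT ATV:4D9 against ATV:ISO). Scaling by library size alone was an alternative added after seeing the data, and put the median gene at -0.17 in that contrast. It was at -0.24 in AppSAA against WT with ATV:ISO, at -0.10 in AppSAA ATV:4D9 against ATV:ISO and at -0.15 between the genotypes with ATV:4D9. The TMM medians of these other contrasts were -0.06, -0.03 and -0.007, in the same order. With the block and library size together, C1qa in AppSAA mice still passed, at 0.18 against ATV:ISO (adjusted p = 5.89e-04) and 0.16 against 4D9 (adjusted p = 0.00235). The other 8 of the 10 C1q calls made with the block were lost. C1qb and C1qc in WT mice instead came out lower with ATV:4D9, by -0.09 and -0.10 (adjusted p = 0.0407 and 0.0368), against 0.02 and 0.01 with TMM and no block. A ratio within a mouse needs no scaling. The ratio of C1qa to C1qb UMIs was 1.05 to 1.13 in WT ATV:ISO and 1.14 to 1.20 in WT ATV:4D9 mice, and in AppSAA mice it was 1.05 to 1.09 with ATV:ISO, 1.04 to 1.13 with 4D9 and 1.13 to 1.18 with ATV:4D9. C1qa was thus higher relative to C1qb in every ATV:4D9 mouse than in every ATV:ISO mouse of its genotype, a description made after the values were seen. How often ratios of other genes split the groups in this way was not counted. Against 4D9 the ratios of AppSAA mice overlapped, with 4D9 replicate 4 at 1.1299 and ATV:4D9 replicate 2 at 1.1274.

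C3, the central component of the cascade, was low in number and higher in AppSAA mice. It was at 0.816, 1.07, 1.23 and 1.02 CPM in WT ATV:ISO mice and at 1.19, 1.04, 1.61 and 1.49 CPM in WT ATV:4D9 mice. In AppSAA mice it was at 3.08, 4.13, 6.04 and 3.59 CPM with ATV:ISO, at 5.41, 3.17, 3.67 and 3.33 CPM with 4D9, and at 4.57, 5.58, 6.78 and 4.60 CPM with ATV:4D9. Every AppSAA mouse was above every WT mouse, while the antibody groups overlapped within each genotype. These values rest on 14 to 29 UMIs per mouse in WT ATV:ISO and 66 to 118 in WT ATV:4D9, against 111 to 471 in AppSAA mice.

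C3 was higher in AppSAA than in WT mice by 2.21 ± 0.25 (SE) on the log2 scale with ATV:ISO (adjusted p = 1.02e-06) and by 2.14 ± 0.21 with ATV:4D9 (adjusted p = 6.10e-07). With ATV:4D9 against ATV:ISO it differed by 0.48 ± 0.26 in WT (adjusted p = 0.119) and 0.41 ± 0.20 in AppSAA mice (adjusted p = 0.0815), neither of them called. The AppSAA difference was called with the pool as a block (adjusted p = 0.0328, but not with the block and library size together), without cells under 1000 or over 25000 UMIs (0.71, adjusted p = 0.00869), and when ATV:ISO replicate 3, 4D9 replicate 1 or ATV:4D9 replicate 4 was left out. AppSAA ATV:4D9 mice were higher than AppSAA 4D9 mice by 0.52 ± 0.20 (adjusted p = 0.0325). That call was lost with library-size scaling (0.47, adjusted p = 0.0606) and when any of 4D9 replicates 2, 3 or 4 or ATV:4D9 replicates 2 or 3 was left out.

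C3 UMIs were spread thinly over cells. The 3485 C3 UMIs lay in 2496 cells, of which 1990 held exactly 1, and the highest count in a cell was 23. The 59 cells with 5 or more C3 UMIs held 11.7% of them, and 13 of these 59 cells carried at least 3 UMIs of border macrophage, monocyte, neutrophil or lymphocyte markers. All cells with such markers were 3.25% of cells and held 8.52% of C3 UMIs, and without them the calls of C3 between groups were the same, a check added after seeing the data.

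C5ar1, the receptor of C5a, was the member that changed most with ATV:4D9. It was at 134.7, 103.1, 88.8 and 100.3 CPM in WT ATV:ISO mice and at 295.8, 260.7, 270.9 and 264.8 CPM in WT ATV:4D9 mice. In AppSAA mice it was at 106.1, 64.7, 72.8 and 82.1 CPM with ATV:ISO, at 94.1, 86.7, 65.8 and 78.3 CPM with 4D9, and at 324.1, 181.7, 213.2 and 221.9 CPM with ATV:4D9. Every ATV:4D9 mouse was above every mouse that did not receive it, and AppSAA ATV:4D9 replicate 1 was the highest of all.

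C5ar1 rose by 1.47 ± 0.21 on the log2 scale in WT mice with ATV:4D9 (adjusted p = 3.84e-06) and by 1.62 ± 0.21 in AppSAA mice (adjusted p = 1.83e-06). Against 4D9 in AppSAA mice it was higher by 1.60 ± 0.21 (adjusted p = 2.08e-06). The response did not differ detectably between genotypes (interaction 0.15 ± 0.29, adjusted p = 0.824). Between AppSAA and WT mice with ATV:ISO C5ar1 differed by -0.21 ± 0.20 (adjusted p = 0.479), and it was called lower, by -0.40, only with the block and library size together (adjusted p = 0.00154), as it was with ATV:4D9 (-0.25, adjusted p = 0.0350). The C5 gene itself, Hc, named here after its values were seen, had 0 UMIs in all 20 mice, which allows a level of up to 0.00294 CPM (3 of 1019911212 UMIs, counting error only).

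C3ar1, the receptor of C3a, varied less than C5ar1. Its group means were 200.1 ± 14.2 CPM in WT ATV:ISO, 201.2 ± 14.9 in WT ATV:4D9, and 209.8 ± 17.5, 207.3 ± 16.8 and 196.8 ± 19.9 in AppSAA mice with ATV:ISO, 4D9 and ATV:4D9 (SD, n = 4). The groups overlapped in CPM. With TMM it was higher by 0.25 ± 0.07 in AppSAA than in WT mice with ATV:ISO (adjusted p = 0.0108), and with library-size scaling the same difference was 0.07 and was not called. Its CPM were higher in the AppSAA mouse in each of the 4 pools of that contrast. In WT mice with ATV:4D9 C3ar1 differed by 0.12 ± 0.07 (adjusted p = 0.132) and was called higher with the block (adjusted p = 0.00935), with DESeq2 (0.0297), with no filter (0.0413), with cells left out by their UMIs (0.0376) and without AppSAA ATV:4D9 replicate 4 (0.0292), while on library size it differed by 0.0076 (adjusted p = 0.943). In AppSAA mice its CPM were lower with ATV:4D9 in each of the 4 pools, against ATV:ISO and against 4D9, and it was called lower with the block and library size together (-0.09 and -0.08, adjusted p = 0.0156 and 0.0436) and in no other setting. The median gene on library size was at -0.10 and -0.09 in these contrasts, so C3ar1 fell about as much as the median gene. How many genes had the same direction in all 4 pools was not counted.

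Of the CR3 chains, Itgam was called lower with ATV:4D9 in WT mice, and the difference between the chains was not tested. Itgam, whose product CD11b was the sort marker, was at 565.4, 639.8, 707.2 and 679.8 CPM in WT ATV:ISO mice and at 437.2, 548.7, 505.9 and 490.9 CPM in WT ATV:4D9 mice. In AppSAA mice it was at 461.0, 489.0, 552.4 and 544.4 CPM with ATV:ISO, at 453.4, 509.9, 518.6 and 550.1 CPM with 4D9, and at 382.9, 521.3, 512.7 and 496.9 CPM with ATV:4D9. Every WT ATV:ISO mouse was above every other mouse, and the remaining groups overlapped. Itgb2, the shared beta chain of this integrin family, had group means between 247.7 ± 8.8 CPM (AppSAA ATV:4D9) and 263.7 ± 12.9 CPM (AppSAA ATV:ISO), and all groups overlapped.

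Itgam fell by 0.27 ± 0.07 on the log2 scale in WT mice with ATV:4D9 (adjusted p = 0.00231), and with library-size scaling by 0.39 (adjusted p = 0.00207). Between AppSAA and WT mice with ATV:ISO it differed by -0.16 ± 0.07 (adjusted p = 0.109), and this was called with the pool as a block (adjusted p = 0.00436) and with library-size scaling (-0.34, adjusted p = 0.00881). The response of Itgam to ATV:4D9 differed between genotypes by 0.24 ± 0.10 (adjusted p = 0.155, and 0.00470 with the block). It was also called without AppSAA ATV:4D9 replicate 1, the lowest Itgam value of the 20 mice. Itgb2 was higher in AppSAA than in WT mice with ATV:ISO by 0.25 ± 0.06 (adjusted p = 0.00494), and the difference was 0.06 and not called with library-size scaling. Its CPM were higher in the AppSAA mouse in each of the 4 pools of that contrast. In WT mice with ATV:4D9 Itgb2 differed by 0.12 ± 0.06 (adjusted p = 0.0877). It was called higher with the pool as a block (adjusted p = 0.00445), with DESeq2, with RLE factors, with no filter, with cells left out by UMIs and without AppSAA ATV:4D9 replicate 4, and on library size it differed by 0.0061 (adjusted p = 0.926). In AppSAA mice Itgb2 was called lower with ATV:4D9 than with ATV:ISO with the block and library size together (-0.09, adjusted p = 0.0168) and in no other setting. The CPM were lower in each of the 4 pools, while the median gene on library size was at -0.10. How many genes had the same direction in all 4 pools was not counted.

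The counts of called members were set beside the share of all genes called. In WT mice ATV:4D9 called 2 of 8 members (C5ar1 higher, Itgam lower) where 63.3% of all genes were called, and with the block 5 of 8 (C1qa, C3ar1 and Itgb2 in addition, all higher) where 74.6% were. Between AppSAA and WT mice with ATV:ISO 3 members were called (C3, C3ar1 and Itgb2) at a background of 28.2%, or 4 (Itgam in addition) at 51% with the block, and with ATV:4D9 1 member (C3) at 11.8%, or 6 (the C1q chains, C3ar1 and Itgb2 in addition) at 31.4% with the block. In AppSAA mice ATV:4D9 called C5ar1 alone against ATV:ISO (background 55.1%, and 5 members at 70.7% with the block) and C5ar1 and C3 against 4D9 (54.3%, and 5 members at 69.9% with the block). For 4D9 against ATV:ISO edgeR called 0 members and 0 genes (background 0%), with 79 genes and 0 members at an unadjusted p under 0.05, and limma called 0 and DESeq2 1 gene. The members then differed by -0.11 (C3) to 0.03 (C1qa). For the interaction, edgeR, limma and DESeq2 each called 0 members at an edgeR background of 9.14%, and edgeR with the block called Itgam and Itgb2 at 30.5%. With the block and library size together the interaction was called for Itgam, C1qa and C1qb and not for Itgb2. The comparisons share control groups, so their counts are not independent.

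**Figure D2:**
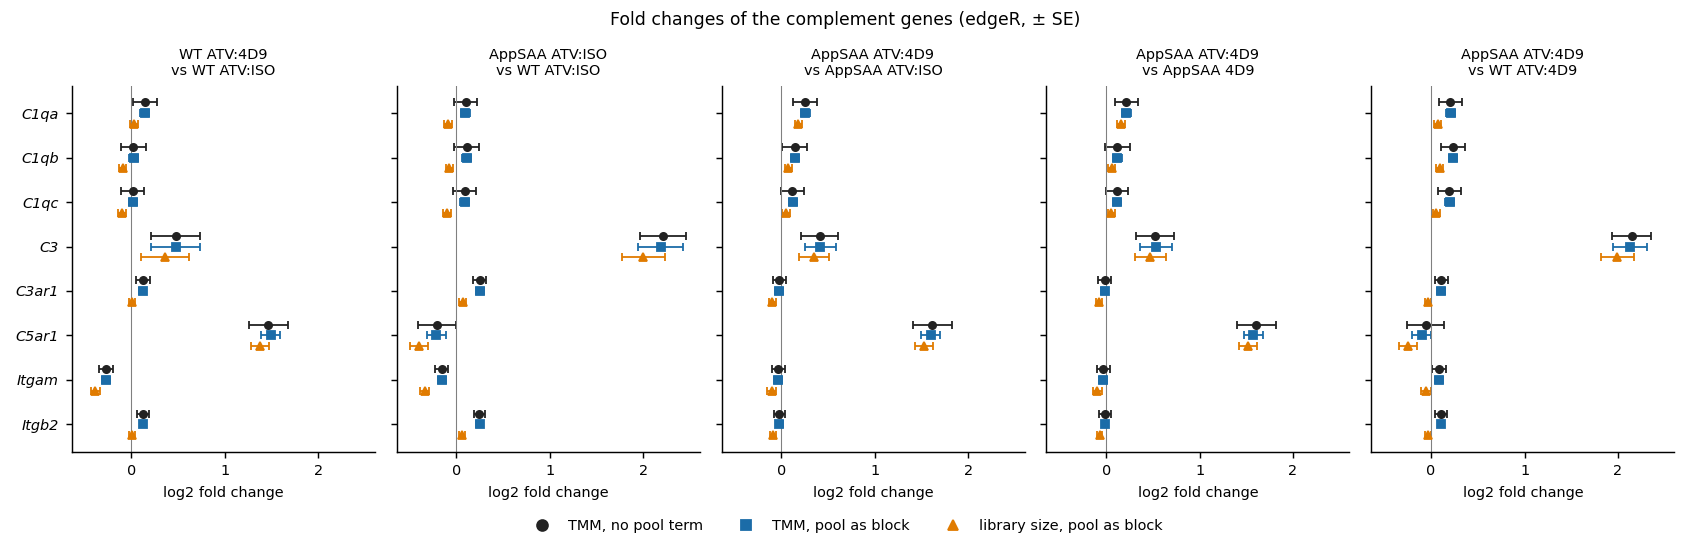
log2 fold changes ± SE of the 8 members in 5 contrasts, from edgeR with TMM and no pool term, with TMM and the pool as a block, and with library size and the pool as a block. With TMM and no pool term C5ar1 stands at 1.47 to 1.62 in the ATV:4D9 contrasts and C3 at 2.21 and 2.14 between genotypes. With library size and the block C5ar1 stands at 1.37 to 1.52 and C3 at 2.00 and 1.99. The C1q chains, C3ar1 and Itgb2 lie nearer to 0, at up to 0.26 (C1qa), and the scaling moves them. Some of these values were called, as C3ar1 and Itgb2 at 0.25 between genotypes with ATV:ISO (TMM).

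CPM are shares of a mouse's UMIs, so the same data were also read as UMIs per cell, which keep the depth difference given above. On that scale all 8 members were higher in every WT ATV:4D9 mouse than in every WT ATV:ISO mouse, as were 62.1% of all genes. C5ar1 was higher 5.02-fold, C3 2.53-fold, C1qa 1.98-fold, C3ar1 1.96-fold, Itgb2 1.95-fold, C1qb 1.83-fold, C1qc 1.82-fold and Itgam 1.48-fold. Itgam thus went up per cell (log2 ratio 0.57) and down as a share (log2 ratio -0.39). In AppSAA mice 7 members, all but C3ar1, were higher in every ATV:4D9 than in every ATV:ISO mouse (background 50.5%), from 1.38-fold for Itgam to 4.37-fold for C5ar1. Against 4D9 the C1q chains, C3 and C5ar1 were (background 42.9%). Between AppSAA and WT mice with ATV:ISO the C1q chains, C3 (5.47-fold) and Itgb2 (1.40-fold) did not overlap (background 25.8%), and between AppSAA and WT mice with ATV:4D9 only C3 did not (4.95%). In CPM the ATV:4D9 groups did not overlap the controls for C5ar1, where 24.3% (WT), 22.9% (AppSAA against ATV:ISO) and 23% (against 4D9) of genes were higher in every mouse. The same holds for C3 between genotypes (9.5% with ATV:ISO and 5.52% with ATV:4D9), and for the lower Itgam of WT ATV:4D9 mice (32.8%) and of AppSAA against WT mice with ATV:ISO (30.6%).

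**Figure D3:**
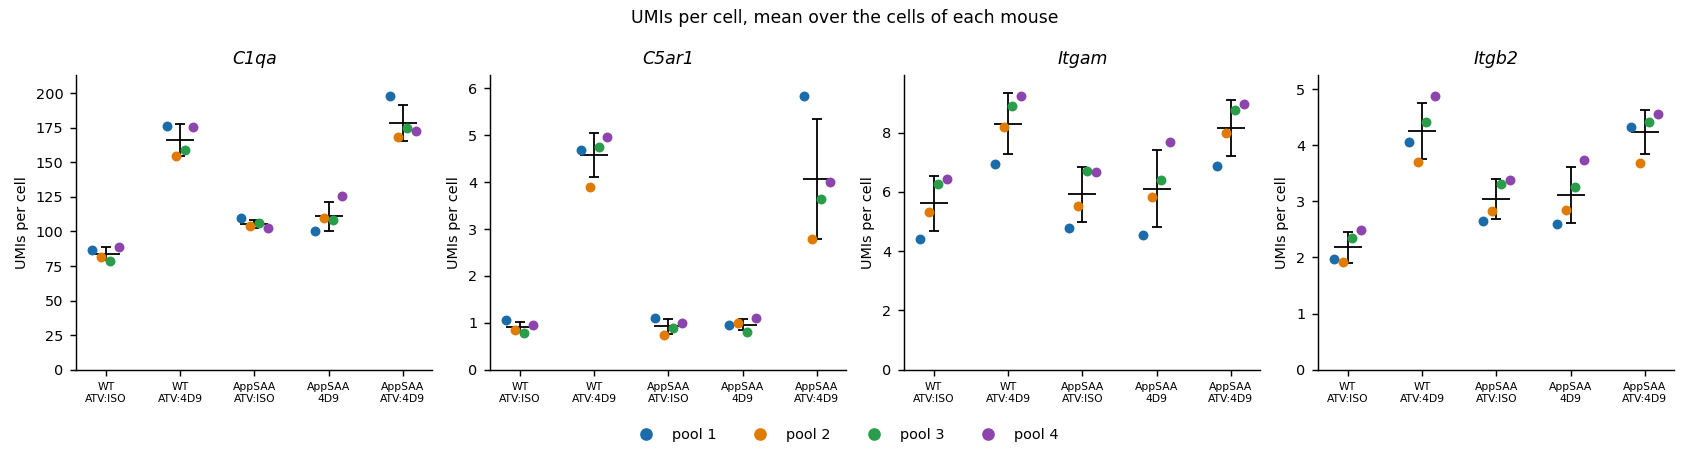
UMIs per cell of C1qa, C5ar1, Itgam and Itgb2 in each mouse, coloured by pool, with bars at the group mean ± SD (n = 4). In both genotypes the ATV:4D9 mice lie above the ATV:ISO mice for all 4 genes, Itgam included.

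The authors' deposited clustering at resolution 0.2 divides the cells into 6 clusters, numbered 0 to 5 and left unnamed here. Their shares differed between groups: cluster 0 held 60.4% of cells in WT ATV:ISO and 3.11% in WT ATV:4D9 mice, and clusters 2 and 4 held 1.35% and 0.351% against 47.8% and 40.0%. In AppSAA mice cluster 1 held 38.3% of cells with ATV:ISO, 39.4% with 4D9 and 13.5% with ATV:4D9, when clusters 2, 4 and 5 held 35.4%, 22.4% and 22.4%. The genes of these cells made the clusters, so levels by cluster are given with no test.

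The cluster order differed between members, though C1qa and C1qb had the same order of cluster means. Itgam was highest in cluster 0 in 20 of 20 mice, at a mean of 729 CPM, and averaged 392 CPM in cluster 4. C5ar1 was highest in cluster 2 in 20 of 20 mice (268 CPM on average) and lowest in cluster 1 in 13 of the 16 mice with enough cells in it (66.4 CPM). C3 averaged 7.06 CPM in cluster 5, its highest cluster in 10 of 17 mice, and 6.71 in cluster 1, its highest in 7 of 16, and its lowest level was in cluster 0 in 13 of 20 mice (1.05 CPM). These means pool both genotypes in unequal numbers, and in AppSAA ATV:ISO mice cluster 4 had the highest mean (8.99 ± 10.5 CPM, SD, n = 4). Cluster 0 held 114 C3 UMIs over its 20 mice and some mice had 0, so the lowest cluster of C3 lies near the floor. A tie at 0 went to the cluster with the lower number. The C1q chains were each lowest in cluster 4 in 16 of 16 mice, for C1qa at 8246 CPM against 10722 CPM in cluster 0. C3ar1 averaged 255 CPM in cluster 2, its highest cluster in only 11 of 20 mice, and 161 CPM in cluster 4, its lowest in 14 of 16. Its cluster 2 mean was 218 (WT) and 202 CPM (AppSAA) with ATV:4D9 and 278 to 289 CPM in the other groups. Itgb2 kept between 237 CPM (cluster 5) and 277 CPM (cluster 1). Itgam was thus highest where WT ATV:ISO cells mostly lay, and C5ar1 in a cluster held mostly by ATV:4D9 cells.

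**Figure D4:**
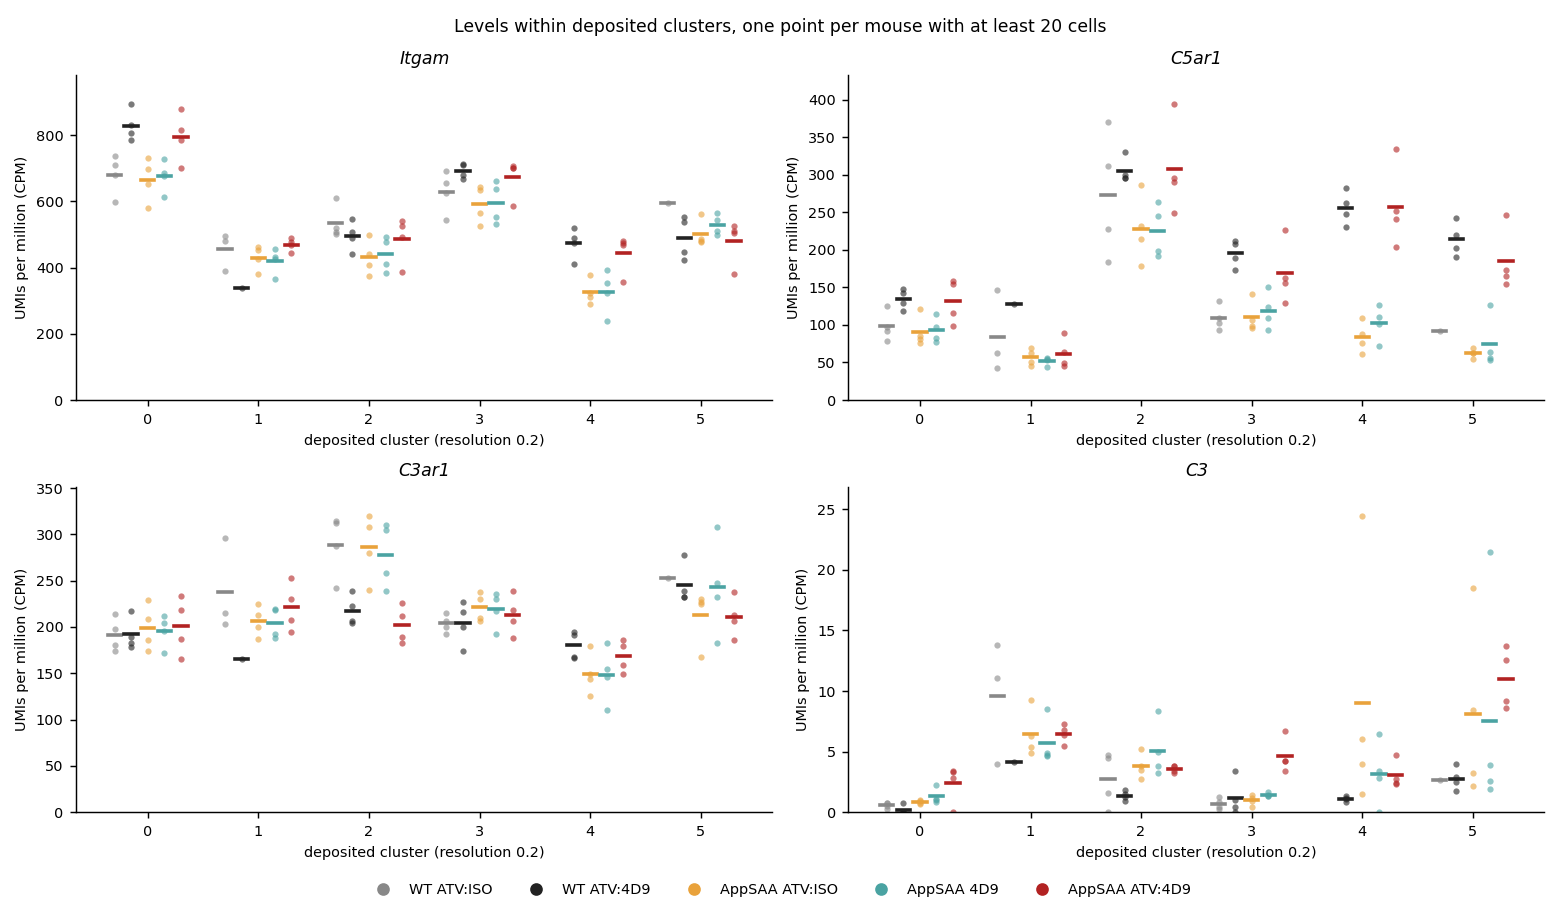
CPM of Itgam, C5ar1, C3ar1 and C3 in each mouse with at least 20 cells in a cluster, by cluster and coloured by group, with bars at the mean of the mice shown. Itgam is highest in cluster 0 and C5ar1 in cluster 2 in every mouse, and in clusters 4 and 5 every ATV:4D9 mouse lies above every other mouse for C5ar1.

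Counts summed per mouse within a cluster were then compared between groups, in clusters with at least 20 cells in at least 3 mice of each group. Cells were clustered on their expression after treatment, so which cells a cluster held depended on the group. A difference within a cluster is thus not a change of the same cells. Of 234 member comparisons 23 were called, against 5.06% of all comparisons of genes within clusters, and 64 with the pool as a block (background 9.67%). The values by cluster that follow are from the fit with no pool term. The calls gained with the block are not named, so a member not called below may be called with the block. No member was called between AppSAA and WT mice with ATV:ISO in clusters 0 to 3 by edgeR, with 1 of 31 comparisons at an unadjusted p under 0.05, and of all genes only 0.274%, 1.21%, 0.281% and 0.189% were called in these clusters. Nor was a member called between 4D9 and ATV:ISO in AppSAA mice, with 1 of 47 at an unadjusted p under 0.05 and 0% of all genes called. In the genotype contrast with ATV:ISO, C3 was below the filter in cluster 2 and rested on few UMIs elsewhere. WT and AppSAA mice held 27 and 38 C3 UMIs in cluster 0, 18 and 754 in cluster 1, and 25 and 49 in cluster 3. These totals follow the number of cells, as cluster 1 held 1.41% of WT and 38.3% of AppSAA cells. In CPM the means were 0.557 and 0.840 in cluster 0 and 0.684 and 0.989 in cluster 3. In cluster 1 they were 9.61 ± 5.10 (SD, 3 WT mice) and 6.45 ± 1.95, so C3 was not higher there in AppSAA mice. Clusters 4 and 5 had too few WT ATV:ISO mice for this contrast. With a minimum of 50 cells, 18 of 152 comparisons were called, and the share of all genes called at that minimum was not counted. The AppSAA contrasts with ATV:4D9 in clusters 0 and 4, that against 4D9 in cluster 5, the WT contrast in cluster 2, the genotype contrast with ATV:ISO in clusters 1 and 2 and the contrast of 4D9 with ATV:ISO in clusters 4 and 5 then had fewer than 3 mice in a group, so those values rest in part on mice with 20 to 50 cells.

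C5ar1 was called higher with ATV:4D9 within clusters 3, 4 and 5. In cluster 3 it was at 132, 109, 93.6 and 103 CPM in WT ATV:ISO and 208, 211, 190 and 173 CPM in WT ATV:4D9 mice, a rise of 0.93 on the log2 scale (adjusted p = 0.00119, background 6.17%). The groups did not overlap, but the share of all genes without overlap was not counted within clusters, here or for the members below. In AppSAA mice against ATV:ISO C5ar1 rose by 0.72 in cluster 3 (adjusted p = 0.0166, background 4.33%), where the groups overlapped and the call was lost without ATV:ISO replicate 2 or 3 or ATV:4D9 replicate 1 (0.54 without the last), by 1.60 in cluster 4 (24.5%) and by 1.70 in cluster 5 (29.7%). Against 4D9 it was higher by 1.38 in cluster 4 (22.1%) and 1.48 in cluster 5 (16.3%), and in cluster 3 it differed by 0.60 (adjusted p = 0.0588). In cluster 2, where C5ar1 was highest, it differed by 0.18 in WT (adjusted p = 0.645) and 0.49 in AppSAA mice against ATV:ISO (adjusted p = 0.0699, called with a minimum of 50 cells). In cluster 0 the differences with no pool term were 0.49 in WT (adjusted p = 0.206) and 0.48 in AppSAA mice (adjusted p = 0.371). In cluster 1, tested in AppSAA mice only, C5ar1 was at 57.0 ± 11.1 CPM with ATV:ISO and 61.8 ± 19.9 CPM with ATV:4D9 (SD, n = 4), a difference of 0.17 (adjusted p = 0.915).

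In cluster 0 Itgam took the opposite direction from that over all cells of WT mice. It was at 598, 678, 737 and 711 CPM in WT ATV:ISO and 785, 894, 830 and 807 CPM in WT ATV:4D9 mice, higher by 0.33 (adjusted p = 0.0409, background 1.47%). The groups did not overlap, and the 4 ATV:4D9 mice had 60 to 186 cells in this cluster. The call was lost in 14 of 20 fits that each left out 1 mouse, where the fold change was 0.28 to 0.35. In WT cluster 3 the difference was 0.24 (adjusted p = 0.0929) and in WT cluster 2 -0.09 (adjusted p = 0.670). In AppSAA mice with ATV:4D9 against ATV:ISO Itgam was higher by 0.31 in cluster 3 (adjusted p = 0.0314, lost in 6 of 20 fits) and by 0.44 in cluster 4 (adjusted p = 0.00855), where the values were 323, 289, 377 and 310 CPM against 357, 480, 474 and 469 CPM. The cluster 4 groups overlapped only through ATV:4D9 replicate 1. The share of cluster 0, the one with the highest Itgam, was the share that fell from 60.4% to 3.11% in WT mice, and the part of cell shares in the level over all cells was not tested. Against 4D9 Itgam was higher by 0.29 in cluster 3 (background 3.52%, lost in 15 of 20 fits) and 0.43 in cluster 4.

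C3ar1 fell within cluster 2 with ATV:4D9. In AppSAA mice it went from 280, 240, 320 and 308 CPM with ATV:ISO to 189, 182, 212 and 226 CPM with ATV:4D9, by -0.46 (adjusted p = 0.00343, background 13.2%). No mouse overlapped. The difference was -0.41 against 4D9 (background 13.4%) and -0.39 in WT mice (adjusted p = 0.0388, background 5.88%, lost in 8 of 20 fits). C1qa was higher in AppSAA mice with ATV:4D9 than with ATV:ISO in cluster 2 (0.41, adjusted p = 0.0156, lost in 3 of 20 fits) and cluster 4 (0.47, adjusted p = 0.00328), and than with 4D9 in cluster 4 (0.41). Itgb2 was higher with ATV:4D9 in WT cluster 3 by 0.41 (adjusted p = 0.00201).

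C3 within clusters rested on few UMIs. In AppSAA mice with ATV:4D9 it was higher in cluster 3, by 2.14 against ATV:ISO (adjusted p = 0.0075, lost without ATV:4D9 replicate 4) and 1.67 against 4D9 (lost in 12 of 20 fits). In cluster 4 it was lower by -1.81 than with ATV:ISO (adjusted p = 0.00537), and without ATV:ISO replicate 4, at 24.4 CPM against 1.48 to 6.06 in the other mice, the difference was -0.62 (adjusted p = 0.458). Between genotypes with ATV:4D9 it was higher in AppSAA mice by 1.497 in cluster 4 (adjusted p = 0.0139, background 2.76%, lost without WT replicate 2 or AppSAA replicate 3) and by 1.95 in cluster 5 (adjusted p = 0.00363, background 6.87%).

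A list of 54 other complement genes, fixed by pathway role and not by their changes, had 42 genes in the matrix and 27 tested. With ATV:4D9 7 rose and 7 fell in WT mice, and 6 rose and 8 fell in AppSAA mice, against ATV:ISO as against 4D9. These 14 of 27 stand beside 63.3% of all genes called in WT and 55.1% and 54.3% in AppSAA mice. Between AppSAA and WT mice 8 were higher and 3 lower with ATV:ISO (28.2% of all genes called), and 7 were higher and 1 lower with ATV:4D9 (11.8%). Library-size scaling took the higher share of all calls between genotypes from 51.2% to 22.3% with ATV:ISO and from 66.3% to 26.5% with ATV:4D9, and the list was not counted on that scale. No gene of the list was called for 4D9 against ATV:ISO. For the interaction 1 of the 27 was called (9.14% of all genes), and 7 with the block (30.5%). Of the 7 tested regulators 4 fell and 0 rose with ATV:4D9 in each genotype against ATV:ISO, where 32.5% (WT) and 27.1% (AppSAA) of all genes fell.

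Itgax and Itgal encode other alpha chains that pair with Itgb2. Itgax, the alpha chain of complement receptor 4, averaged 20.8 CPM in WT ATV:ISO, 40.1 in WT ATV:4D9, and 158, 163 and 92.0 CPM in AppSAA mice with ATV:ISO, 4D9 and ATV:4D9. It was higher in AppSAA than in WT mice with ATV:ISO by 3.11 ± 0.19 on the log2 scale (adjusted p = 3.50e-10). ATV:4D9 raised it in WT mice by 1.06 ± 0.18 (adjusted p = 3.77e-05) and lowered it in AppSAA mice by -0.72 ± 0.17 (adjusted p = 0.00162), and the interaction was -1.78 ± 0.25 (adjusted p = 1.34e-04). Itgal, the alpha chain of LFA-1, was higher in AppSAA mice by 1.67 with ATV:ISO (adjusted p = 0.00105) and 1.22 with ATV:4D9 (adjusted p = 0.00671), at a mean level over mice of 0.917 CPM.

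C5ar2, the second C5a receptor, changed with ATV:4D9 in the opposite direction to C5ar1. It averaged 57.0 CPM in WT ATV:ISO and 27.5 in WT ATV:4D9 mice, and 35.0, 33.1 and 19.1 CPM in AppSAA mice with ATV:ISO, 4D9 and ATV:4D9. It fell by 0.94 ± 0.11 in WT mice (adjusted p = 2.46e-07) and by 0.81 ± 0.11 in AppSAA mice (adjusted p = 2.56e-06) with ATV:4D9 against ATV:ISO, and was lower in AppSAA than WT mice with ATV:ISO by -0.52 ± 0.11 (adjusted p = 8.82e-04). Calr, calreticulin, an endoplasmic reticulum chaperone that also binds C1q, rose by 1.40 ± 0.12 in WT and 1.03 ± 0.11 in AppSAA mice (adjusted p = 2.19e-09 and 2.81e-07). The difference between these responses was not called without the block (interaction -0.37, adjusted p = 0.170) and was called with it (adjusted p = 0.00135).

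Masp1, a serine protease of the lectin pathway, averaged 6.16 CPM in WT ATV:ISO and 19.4 in WT ATV:4D9 mice and rose by 1.76 ± 0.16 (adjusted p = 1.26e-08). In AppSAA mice it rose by 1.12 ± 0.15 (adjusted p = 2.86e-06), from 12.4 to 25.7 CPM. It was higher in AppSAA than in WT mice by 1.19 ± 0.16 with ATV:ISO (adjusted p = 1.33e-05) and by 0.55 ± 0.15 with ATV:4D9 (adjusted p = 0.0160). Its interaction of -0.64 was called with the block (adjusted p = 0.00422) and not without it (adjusted p = 0.0733). Csmd3, a large membrane protein of the complement control domain family, fell with ATV:4D9 by 1.22 ± 0.18 in WT and by 1.19 ± 0.18 in AppSAA mice (adjusted p = 7.41e-06 and 1.56e-05). Cfp, properdin, and Cd93, a membrane protein once described as a C1q receptor, were not called in any contrast, and Serping1, the C1 inhibitor, at 0 to 0.153 CPM, was below the filter.

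**Figure D5:**
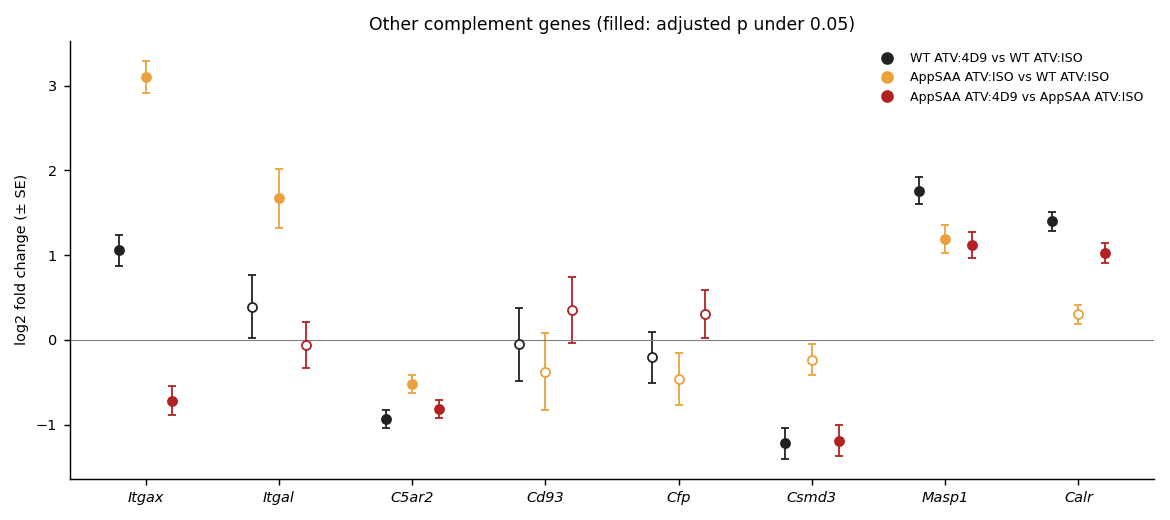
log2 fold changes ± SE of complement genes outside the 8 members in 3 contrasts, with filled points for genes called by edgeR (adjusted p under 0.05). With ATV:4D9 Masp1 and Calr rose and C5ar2 and Csmd3 fell in both genotypes, and Itgax rose in WT and fell in AppSAA mice.

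The genes whose CPM followed each member most closely over the 20 mice were sought among 8027 genes with a mean of at least 10 CPM, by Pearson r of log2 values. These are descriptions, and the mice share groups, pools and depth. C1qb was most like C1qc (0.970), then Nudt9 (0.931) and Tap2 (0.898). C1qa was nearest to March2 and Ndufs7 (both 0.876), and its r with C1qb was 0.861 and with C1qc 0.851. C3 was nearest to Axl (0.949), Ch25h (0.930) and B2m (0.916), and C5ar1 to Psph (0.988), Actg1 (0.986) and Emp3 (0.986). Itgam was nearest to Vhl (0.976), Ccnt2 (0.974) and Zfp160 (0.971). C3ar1 was nearest to the mitochondrial genes mt-Co3 (0.917) and mt-Atp6 (0.913). Itgb2 had the lowest values, with Inppl1 (0.832), Ctnnb1 (0.817) and Tpp1 (0.797), and its r with C3ar1 was 0.758.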

How the data were processed

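Brain microglia of 20 mice were profiled by droplet single-cell RNA sequencing with sample tags in 4 pools. The deposited UMI counts per cell and gene were made by the authors with Cell Ranger 6.1.1 on mm10, with Seurat for integration and clustering, and the cluster labels and percent of mitochondrial UMIs were deposited per cell (the percent was used only for a median per mouse). Filters on cells and genes and the treatment of doublets are not given in the sources used here, and no doublet caller was run.

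Counts were summed per mouse and tested with edgeR 4.0.16 (R 4.3.3; filterByExpr, TMM factors, quasi-likelihood, Benjamini-Hochberg adjustment over 14058 genes, threshold 0.05) in 1 fit of all 5 groups. Each mouse is 1 sample. CPM, UMIs per cell and sums per cluster (at least 20 cells) were computed with Python 3.11.15 and pandas 2.3.3. Alternatives were DESeq2 1.42.0 and limma 3.58.1, other scalings and filters, the pool as a block and leaving out each mouse. Mice of a pool deviated together (40 of 40 pairs over 0.1, correlation 0.279 to 0.808, median 0.672, over 8028 genes), so the pool pairs them.

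The members and gene lists were chosen with earlier results of these data known. Pathway genes were named by a rule: Itgax, Itgal, C5ar2, Cfp, Cd93, Serping1 and 1 gene that is not reported here, and the 3 called genes with the largest absolute log2 fold change in a contrast at a mean of at least 10 CPM. Similar genes were the 3 with the highest Pearson r. Promoters came from RefSeq (GRCm38.p6), with 6 of 8 members matched, and gene positions from the mm10 annotation. The scripts were checked on simulated data.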

Additional observations from a re-analysis of the deposited data

Results flagged for a closer look

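Over all cells none of the 40 sets of 4 mice held a value far from the other 3 by Dixon's test, and within clusters 11 of 208 sets did, where chance gives about 1 in 20. C3 in cluster 0 was at 0.729 CPM in WT ATV:4D9 replicate 2 and 0 in the others. C3 in AppSAA 4D9 mice was at 8.49 CPM in cluster 1 of replicate 1 (others 4.67 to 4.88) and at 21.5 CPM in cluster 5 of replicate 3 (others 1.94 to 3.90). C3ar1 in cluster 5 was at 277 CPM in WT ATV:4D9 replicate 3 (others 232 to 239) and at 167 CPM in AppSAA ATV:ISO replicate 1 (others 224 to 231). C5ar1 was at 330 CPM in cluster 2 of WT ATV:4D9 replicate 1 (others 295 to 300.0) and at 126 CPM in cluster 5 of AppSAA 4D9 replicate 1 (others 53.6 to 64.0). Itgam in AppSAA ATV:4D9 replicate 1 was the lowest in cluster 3 (587 against 700.1 to 706 CPM), cluster 4 (357 against 469 to 480 CPM) and cluster 5 (381 against 506 to 527 CPM). Itgam in cluster 5 of AppSAA ATV:ISO replicate 3 was at 561 CPM (others 477 to 487).

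The response to ATV:4D9 differed between genotypes for Itgax (interaction -1.78 on the log2 scale), Trem2 (-0.48) and Cst7 (-2.10) in edgeR, and with the pool as a block for Itgam (0.24), Itgb2 (-0.14, not called with the block and library size together), Calr (-0.37) and Masp1 (-0.64).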

How the results depend on the processing

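Depth limits C3 most, with 14 to 29 UMIs in each WT ATV:ISO mouse, and C3 within clusters rests on fewer. The calls of C5ar1 with ATV:4D9 and of C3 between genotypes over all cells held in each of the 30 alternative fits, as did the lower Itgam of WT mice, which reversed only when read as UMIs per cell. Of alternatives on single genes 2420 were counted as the same, 91 gained a call, 75 lost one and 3 reversed, and 37 values with no test moved beyond the spread between mice. A change of sign was counted as a reversal only where a call was made, so uncalled values among the 2420 could change sign. Between genotypes with ATV:ISO, C1qa, C1qb and C1qc were at 0.099, 0.113 and 0.090 with TMM. With library size they were at -0.087, -0.073 and -0.096. The cause of these changes was not tested.

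The values counted as reversed were C1qb at -0.091 and C1qc at -0.10 in WT mice with ATV:4D9 (pool block with library size), and Itgam at 0.57 on the UMIs per cell scale. Members called in WT mice with ATV:4D9 were 4 with no filter, with DESeq2, with cells under 1000 or over 25000 UMIs left out and with pool block and library size, and 5 with the pool block. In AppSAA mice with ATV:4D9 against ATV:ISO they were 5 (block), 3 (cells by UMIs) and 4 (block with library size, with C3ar1 and Itgb2 lower in place of C1qb, C1qc and C3), and against 4D9 5 (block), 1 (library size) and 4 (block with library size, with C3ar1 lower in place of C1qb and C1qc). Between genotypes with ATV:4D9 they were 6 (block) and 2 (block with library size, C3 and a lower C5ar1), and for the interaction 2 (Itgam and Itgb2) and 3 (Itgam, C1qa and C1qb). The backgrounds with the block are given above. Of 14058 genes, library size called 7614 against 4D9. Block with library size called 7194 between genotypes with ATV:4D9 and 4367 for the interaction. The other counts have no share of all genes called beside them.

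Genes called between genotypes with ATV:ISO were 7166 (block), 6787 (library size) and 9356 (both) against 3960, with ATV:4D9 4409, 2993 and 7194 against 1661, and for the interaction 4284 (block) and 4367 (both) against 1285. DESeq2 called 1 gene for 4D9 against ATV:ISO. The share of called genes that were higher in AppSAA mice was 51.2% with TMM and 22.3% with library size for ATV:ISO, and 66.3% and 26.5% for ATV:4D9. Within clusters 64 calls were made with the block, and on the UMIs per cell scale 26 member comparisons did not overlap against 7 in CPM. At cluster resolution 0.4 the ratio of the highest to the lowest cluster mean was 2.53 for C3ar1, 8.58 for C5ar1, 3.18 for Itgam and 1.45 for Itgb2, against 1.58, 4.03, 1.86 and 1.17 at resolution 0.2, and Itgam was highest in cluster 0 in 18 of 20 mice.

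With each mouse left out, genes called were 8354 to 9021 (ATV:4D9 in WT), 3192 to 4337 (genotype, ATV:ISO), 6777 to 7848 and 6624 to 7749 (ATV:4D9 in AppSAA against ATV:ISO and 4D9), 1103 to 1719 (genotype, ATV:4D9) and 969 to 1861 (interaction), and 0 for 4D9. Members called were 2 to 4, 3, 1 to 3, 1 to 2, 1, 0 to 1 and 0 in the same order, and 17 to 25 within clusters. Library-size scaling, alone or with the block, and leaving out cells with markers of other leukocytes were chosen after seeing the data.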
